A study of Mus musculus with 12 samples.

Results

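The amino acid and neurotransmitter transporters of the solute carrier families Slc1, Slc3, Slc6, Slc7, Slc36, Slc38 and Slc43 were examined in mature mouse white adipocytes. Members were all genes whose symbol began with one of these family names, which gave 63 of the 20295 genes counted. They comprise 61 transporter genes and 2 opposite-strand transcripts, Slc7a6os and Slc6a19os, which share the name but not the function. The adipocytes came from the epididymal white adipose tissue (eWAT) of lean male C57/BL6J mice, whose age is not given in the sources used here. They were released with collagenase, collected by floatation, embedded in a hydrogel at 50000 cells per well and kept for 2 days before treatment. All 4 groups were wild type and had 3 RNA-seq libraries each. The DMSO group received vehicle, and the ISO group received isoproterenol, a β-adrenergic agonist, for 3 h. The Lip group received a pair of lipase inhibitors, Atglistatin against ATGL and CAY10499 against HSL according to the methods of the study, and the Lip+ISO group received the inhibitors followed by ISO. The replicates are independent experiments per the methods, but whether a library came from 1 animal or from pooled animals is not stated.

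Amino acid transporters move amino acids, and in some cases creatine, taurine or neurotransmitters, across the plasma membrane and the membranes of lysosomes and vesicles. Slc3a2 (CD98 heavy chain) carries no substrate itself. It pairs with a light chain of the Slc7 family and brings it to the cell surface. The Slc38 family takes up small neutral amino acids and glutamine with sodium, and the Slc7 exchangers trade these for larger or charged ones. In adipocytes, β-adrenergic receptors raise cAMP, which drives lipolysis and activates transcription factors that bind cAMP response elements. Amino acid shortage and other stresses act through ATF4, which binds amino acid response elements.

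The promoters of 3 members are shown because they hold motifs bound by factors of these pathways and belong to genes whose levels in libraries with ISO are described below. They are RefSeq sequences of mouse build GRCm38.p6, from 250 bases before to 50 bases after the annotated start, written 5′ to 3′ on the gene's own strand, which is the minus strand for all 3. Slc38a2 lies at chr15:96699679-96699978, Slc6a17 at chr3:107517969-107518268 and Slc7a11 at chr3:50443564-50443863. Capitals mark the short core of a cAMP response element (TGACG, or CGTCA for the other strand) in Slc38a2 and Slc6a17, and the core of an amino acid response element (TGATGNAA, in either direction) in Slc7a11.
Slc38a2: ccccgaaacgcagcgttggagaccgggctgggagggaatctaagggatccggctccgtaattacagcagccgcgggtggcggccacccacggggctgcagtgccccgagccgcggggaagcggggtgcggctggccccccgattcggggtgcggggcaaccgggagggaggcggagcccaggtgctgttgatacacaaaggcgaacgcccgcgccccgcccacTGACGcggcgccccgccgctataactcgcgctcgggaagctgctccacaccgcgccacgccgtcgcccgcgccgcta
Slc6a17: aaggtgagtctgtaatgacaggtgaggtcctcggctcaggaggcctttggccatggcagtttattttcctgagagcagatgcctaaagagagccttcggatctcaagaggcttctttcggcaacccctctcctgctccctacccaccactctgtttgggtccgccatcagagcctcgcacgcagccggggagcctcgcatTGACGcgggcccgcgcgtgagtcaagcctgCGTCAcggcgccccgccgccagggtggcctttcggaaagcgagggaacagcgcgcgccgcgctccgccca
Slc7a11: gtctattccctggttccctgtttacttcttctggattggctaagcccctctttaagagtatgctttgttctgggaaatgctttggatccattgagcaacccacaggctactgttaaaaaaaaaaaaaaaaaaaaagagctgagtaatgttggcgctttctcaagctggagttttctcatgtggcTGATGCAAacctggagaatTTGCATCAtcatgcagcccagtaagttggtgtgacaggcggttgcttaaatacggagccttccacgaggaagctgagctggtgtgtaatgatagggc

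The core TGACG began 27 bases before the start of Slc38a2, and copies in opposite directions began 50 and 20 bases before the start of Slc6a17 shown. A further promoter of Slc6a17 in the table, at chr3:107500691-107500990, held none of the motifs searched. The cores of the amino acid response element of Slc7a11 began 66 and 47 bases before its start. In a search of both strands, TGACG was found in 20.8% of all 32851 promoters of the table, and it was found in 17 of the 66 promoters of the 45 members that matched by symbol. TGATGNAA was found in 3.97% of all promoters and in 4 promoters of the members, which belong to Slc1a4, Slc7a11 and Slc7a7. The full palindrome TGACGTCA, which contains TGACG, was found in 1.79% of all promoters and in 1 promoter of the members, that of Slc38a6. Of the 16 members with TGACG, only Slc38a2 and Slc6a17 passed as higher in the responses to ISO described below. Of the 3 with TGATGNAA, only Slc7a7 did. In ISO against DMSO the log2 fold change was -0.31 ± 0.12 (SE) for Slc38a6. It was also -0.31 ± 0.12 for Slc1a4, which holds TGACG and TGATGNAA, and neither passed. The promoters of Slc3a2 and Slc7a8 held none of these 3 motifs, and the table had no entry for 18 members, among them Slc7a5, Slc38a3 and Slc6a8. A match describes the letters only, and binding was not measured.

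The libraries held 22632220 to 43707557 counts. A count of 3 in a library, taken as the limit of detection for counting error alone, corresponded to 0.0678 to 0.132 CPM (a gene's counts relative to the library total, on the usual scale and corrected by the TMM method). The adipocyte markers Adipoq, Plin1 and Fabp4 were abundant throughout, and the sum of 12 adipocyte markers was 30600 to 46600 CPM in the 12 libraries. The sum of 12 macrophage markers was 57.6 to 73.2 CPM in DMSO and 122 to 180 CPM in ISO. In Lip it was 62.2 to 66.5 CPM, and in Lip+ISO it was 78 to 133 CPM. The sum of 10 fibroblast and progenitor markers was 385 to 678 CPM in DMSO, 761 to 1008 CPM in ISO, 506 to 546 CPM in Lip and 467 to 646 CPM in Lip+ISO. The sum of 8 mesothelial markers was 44.1 to 87.2 CPM in DMSO, 100.5 to 127 CPM in ISO, 33.0 to 75.6 CPM in Lip and 60.7 to 80.7 CPM in Lip+ISO. That of 10 endothelial markers was 114 to 214 CPM, 206 to 399.7 CPM, 60.05 to 192 CPM and 85.2 to 247 CPM in the same order. In ISO against DMSO, 8 of 12 macrophage, 4 of 10 fibroblast and progenitor, 2 of 8 mesothelial and 1 of 10 endothelial markers passed as higher, against 12.3% of all tested genes. The part of these cell types in the responses of the transporters to ISO was not tested. In RNA from whole cultures, fewer cells of a type and less RNA per cell cannot be told apart. Lip replicate 3 had the highest sum of 6 epithelial markers (154 CPM, against 3.44 to 32.9 CPM in the other 11 libraries), and Lip+ISO replicate 1 had the most Slc7a11. Where a member that passed missed the threshold without 1 of these libraries, this is given below. Fits without both are given for Slc7a11 and for the counts of members. The sums, shares and ratio of the Slc7 light chains are given over all libraries only.

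Of the 63 members, 40 had enough counts to be tested, among 13543 tested genes in all. The Slc7 family had 10 tested members of 16, Slc6 had 9 of 20, Slc38 had 8 of 11, and Slc1 had 6 of 7. All 3 members of Slc43 were tested, as were 3 of 4 in Slc36 and 1 of 2 in Slc3. The other 23 had at most 15 counts in a library. They include the transporters of noradrenaline (Slc6a2, highest count 9), dopamine (Slc6a3, 6) and GABA (Slc6a11, 15), and Slc3a1 (15), the other heavy chain. They also include Slc1a6, Slc36a3, Slc38a5, Slc38a8, Slc38a11, Slc6a5, Slc6a7, Slc6a14, Slc6a18, Slc6a19os, Slc6a20a, Slc6a20b, Slc7a3, Slc7a9, Slc7a12, Slc7a13, Slc7a14 and Slc7a15. Slc7a12 had no count in any library. Slc6a4, the serotonin transporter, passed the filter but stayed at 0.0316 to 0.778 CPM.

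A few transporters held most of the transcripts of unstimulated adipocytes. On the scale of CPM per kb of counted length, which allows levels to be compared between genes, Slc1a5, Slc38a10, Slc7a10, Slc3a2 and Slc6a6 together made up 64.9% ± 1.1 (SD, n = 3) of the summed level of all members in DMSO. Slc1a5 (ASCT2), an exchanger of glutamine and other neutral amino acids, held 19.1% ± 0.5, and Slc38a10 held 15.4% ± 0.8. Slc7a10 (Asc-1), which exchanges alanine, serine and glycine, held 13.2% ± 1.2. Slc3a2 followed with 11.3% ± 0.6. The shares of these 4 did not overlap between libraries, although the lowest of Slc7a10 and the highest of Slc3a2 both came to 11.9%. By mean CPM in DMSO, 6 members had at least 100, 18 had 10 to 100, 7 had 1 to 10 and 32 were under 1.

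**Figure D1:**
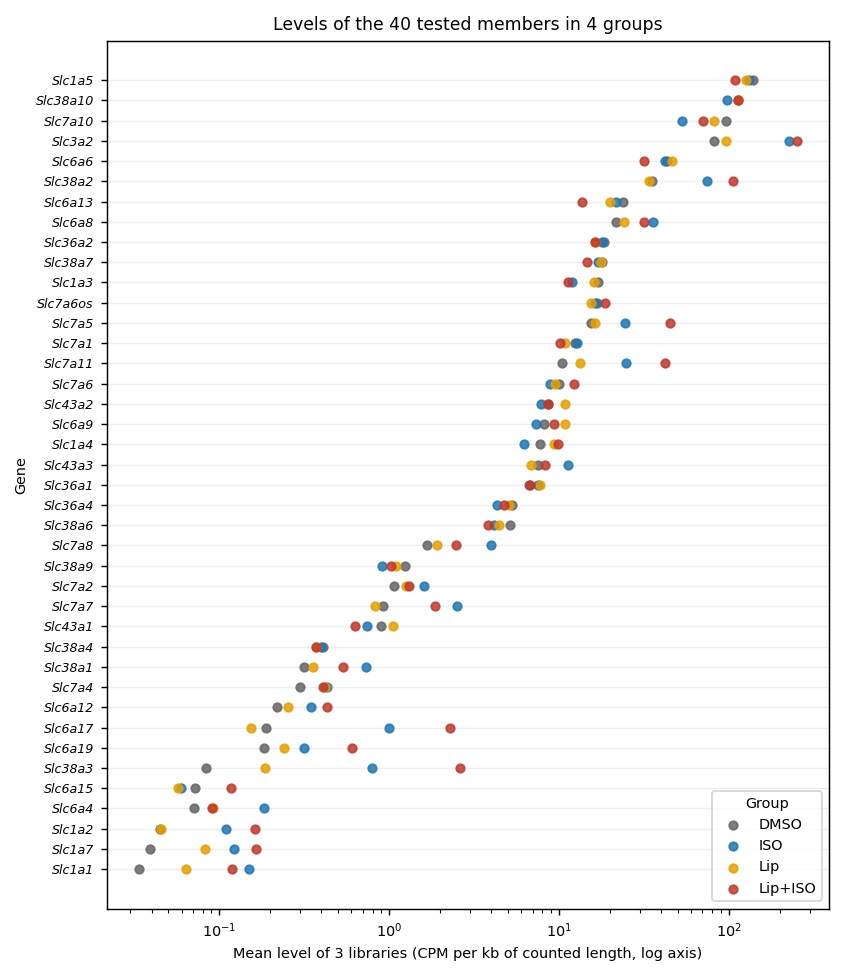
Mean level of each tested member in the 4 groups (points, n = 3 libraries each) in CPM per kb of counted length on a log axis, ordered by the level in DMSO. Slc3a2 moves from 82.4 CPM per kb in DMSO to 225 in ISO, while Slc1a5 and Slc38a10 stay near the top in every group.

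Addition of ISO to cells without inhibitors raised 8 of the 40 tested members and lowered 1, by the count of those that passed. The 8 were the heavy chain Slc3a2, its light chains Slc7a5, Slc7a7 and Slc7a8, the glutamine and neutral amino acid carriers Slc38a2 and Slc38a3, the vesicular neutral amino acid transporter Slc6a17 and the creatine transporter Slc6a8. The lysosomal arginine sensor Slc38a9 was the only member that passed as lower. Thus 20% of members passed as higher, against 12.3% of all tested genes, and 2.5% as lower, against 13.9%. A log2 fold change of at least 1 was reached by 6 members, all higher, against a background of 5.68% of all tested genes. The median log2 fold change was 0.12 over the members and 0.00 over all tested genes. The groups did not overlap, all ISO libraries being higher than all DMSO libraries, for 13 members against 20.7% of all tested genes, and all lower for 7 against 22.6%. Members that passed were counted with edgeR's quasi-likelihood test at a Benjamini-Hochberg adjusted p of 0.05 or less.

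Slc3a2 (chr19:8781372-8797859, minus strand, mm9 as all coordinates of the count table) had 224, 241 and 231 CPM in the 3 DMSO libraries and 684, 640.15 and 576 CPM in the 3 ISO libraries. The groups were far apart, and the level rose 2.73-fold (log2 fold change 1.45 ± 0.12 SE, adjusted p = 2.89e-06 by edgeR's quasi-likelihood test). With inhibitors, Slc3a2 had 259, 270 and 289 CPM in Lip and 848, 592 and 678 CPM in Lip+ISO. The groups were again separate and the rise was 2.59-fold (1.37 ± 0.12, adjusted p = 2.69e-06). The difference between both responses was -0.078 ± 0.166 (adjusted p = 0.887). Leaving out Lip+ISO replicate 2 turned its sign (0.048), and either value is small against the error. As a share of all members on the scale of CPM per kb, Slc3a2 held 11.3% ± 0.6 in DMSO, 25.6% ± 1.8 in ISO, 13.4% ± 0.4 in Lip and 25.8% ± 2.9 in Lip+ISO.

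Among the light chains, Slc7a5 (LAT1, chr8:124405046-124431586, minus strand) exchanges intracellular glutamine for leucine and other large neutral amino acids. It had 47.0, 53.2 and 61.9 CPM in DMSO and 77.6, 81.3 and 100.3 CPM in ISO. The groups did not overlap, and the rise was 1.60-fold (0.68 ± 0.15, adjusted p = 0.00528). In Lip it had 48.3, 55.6 and 68.2 CPM, and in Lip+ISO it had 174, 137 and 166 CPM. All Lip+ISO libraries exceeded all others, and the rise over Lip was 2.77-fold (1.47 ± 0.15, adjusted p = 1.07e-05). Slc7a5 was 1.84-fold higher in Lip+ISO than in ISO (0.88 ± 0.15, adjusted p = 0.00259). The test of whether the responses with and without inhibitors differ gave 0.80 ± 0.21 with an adjusted p of 0.0855. It passed with the DESeq2 Wald test (adjusted p = 0.0121) and without Lip replicate 3 (adjusted p = 0.0456). Without replicate 2 of every group, the rise in ISO over DMSO missed the threshold (0.70, adjusted p = 0.0533).

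Slc7a8 (LAT2, chr14:55341052-55400723, minus strand) carries a broader range of neutral amino acids. It had 6.32, 7.30 and 6.54 CPM in DMSO, 14.3, 11.8 and 22.2 CPM in ISO, 7.52, 7.69 and 7.89 CPM in Lip, and 10.6, 9.71 and 9.73 CPM in Lip+ISO. The ISO libraries were above all others. The rise in ISO over DMSO was 2.39-fold (1.26 ± 0.19, adjusted p = 0.000508). Between Lip+ISO and Lip the values did not overlap, but the log2 fold change of 0.38 ± 0.19 did not pass (adjusted p = 0.178; 0.048 without ISO replicate 3). Slc7a8 was lower in Lip+ISO than in ISO (-0.68 ± 0.19, adjusted p = 0.0445). This call held only without ISO replicate 2 among the 15 fits that left out 1 library or 1 replicate number, with values of -0.87 to -0.36 and adjusted p of 0.0139 to 0.355. The difference between both ISO responses was -0.88 ± 0.27 (adjusted p = 0.153).

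Slc7a7 (y+LAT1, chr14:54989126-55036539, minus strand) exports arginine and lysine in exchange for neutral amino acids and sodium, and is also found in macrophages. It had 1.83, 2.31 and 1.57 CPM in DMSO and 4.05, 5.52 and 5.88 CPM in ISO. It had 1.41, 1.61 and 2.08 CPM in Lip and 3.15, 4.60 and 3.77 CPM in Lip+ISO. Every library with ISO exceeded every library without it. The level rose 2.71-fold without inhibitors (1.44 ± 0.25, adjusted p = 0.00119) and 2.25-fold with them (1.17 ± 0.25, adjusted p = 0.0037; 0.0902 without replicate 2 of every group). Of 12 macrophage markers, 8 passed as higher in ISO than in DMSO and 4 in Lip+ISO than in Lip, against 12.3% and 11.5% of all tested genes. Their sums are given above. Among the defining markers, Emr1 was at 3.72 to 4.24 CPM in DMSO and at 4.85 to 8.26 CPM in ISO. Cd68 was at 8.18 to 10.4 CPM and 19.6 to 20.4 CPM, and Csf1r at 7.99 to 9.5 CPM and 12.9 to 29.4 CPM. In Lip and Lip+ISO, Emr1 had 3.02 to 4.47 CPM and 3.42 to 5.05 CPM. Cd68 had 7.42 to 10.9 CPM and 8.74 to 18.2 CPM there, and Csf1r 8.94 to 12.4 CPM and 14.4 to 27.2 CPM. The part of macrophage RNA in the change of Slc7a7 was not tested. Slc7a7 overlaps Oxa1l on the other strand, and since no source states that the counting used strand, reads of the overlap cannot be told apart. Oxa1l had means of 50.5 CPM in DMSO and 46.1 CPM in ISO.

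The most abundant light chain in DMSO was Slc7a10 (chr7:35971404-35986130, plus strand). It had 163, 147 and 188 CPM in DMSO and 119, 88.6 and 66.2 CPM in ISO. The groups did not overlap, but the log2 fold change of -0.86 ± 0.31 missed the threshold (adjusted p = 0.0543). Leaving out ISO replicate 1, Lip+ISO replicate 1, Lip+ISO replicate 3 or replicate 1 of every group brought it under the threshold, with adjusted p of 0.0358, 0.0203, 0.0148 and 0.0359. By edgeR it also passed with the replicate number as a block (adjusted p = 0.0369) and with only the 2 groups compared (adjusted p = 0.00821). The same held without the low-count filter (0.0394) and with library totals alone (0.0316). It did not pass with the DESeq2 Wald test (adjusted p = 0.0698). In Lip it had 138, 110.1 and 176 CPM, and in Lip+ISO 69.3, 107 and 188 CPM, so that these groups overlapped (-0.22 ± 0.30, adjusted p = 0.662). Its span overlaps Lrp3 on the other strand, whose mean was 46.7 CPM in DMSO and 47.6 CPM in ISO.

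Slc7a11 (xCT, chr3:50168858-50247535, minus strand) imports cystine in exchange for glutamate and serves glutathione synthesis. It had 130.1, 99.0 and 61.3 CPM in DMSO and 256, 226 and 206 CPM in ISO. In Lip it had 174, 135 and 59.7 CPM, and in Lip+ISO it had 881, 205 and 87.9 CPM. The ISO libraries were above all DMSO libraries, whereas Lip+ISO spanned a wide range and overlapped Lip. Neither response passed, with 1.25 ± 0.64 in ISO over DMSO (adjusted p = 0.168) and 1.67 ± 0.64 in Lip+ISO over Lip (adjusted p = 0.0735). Neither passed with the DESeq2 Wald test (adjusted p = 0.193 and 0.0653). By edgeR with the replicate number as a block, both passed (1.38, adjusted p = 0.0203 and 1.35, adjusted p = 0.0249). With only the 2 groups compared by edgeR, the response without inhibitors passed (adjusted p = 0.00383) and that with inhibitors did not. Without Lip+ISO replicate 1, which holds the value of 881 CPM, the response to ISO without inhibitors passed (1.24, adjusted p = 0.0324). The response with inhibitors was 0.25 without Lip+ISO replicate 1 (adjusted p = 0.748), and it passed without Lip+ISO replicate 3 (2.16, adjusted p = 0.0109). With Lip replicate 3 and Lip+ISO replicate 1 both left out, the latter was -0.079 (adjusted p = 0.922).

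The light chain Slc7a6 and the cationic transporters passed in no comparison. Slc7a6 (y+LAT2) had 32.9 to 42.95 CPM in DMSO, 28.6 to 36.8 CPM in ISO, 32.2 to 37.9 CPM in Lip and 32.9 to 58.6 CPM in Lip+ISO. The cationic amino acid transporter Slc7a1 (CAT-1), which needs no heavy chain, had 60.2, 99.1 and 107 CPM in DMSO and 72.1, 86.3 and 118 CPM in ISO (0.06 ± 0.22, adjusted p = 0.877). Slc7a2 (CAT-2) had 6.51, 10.7 and 7.56 CPM in DMSO and 7.44, 14.2 and 15.7 CPM in ISO (0.60 ± 0.31, adjusted p = 0.165). For both cationic transporters the groups overlapped.

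**Figure D2:**
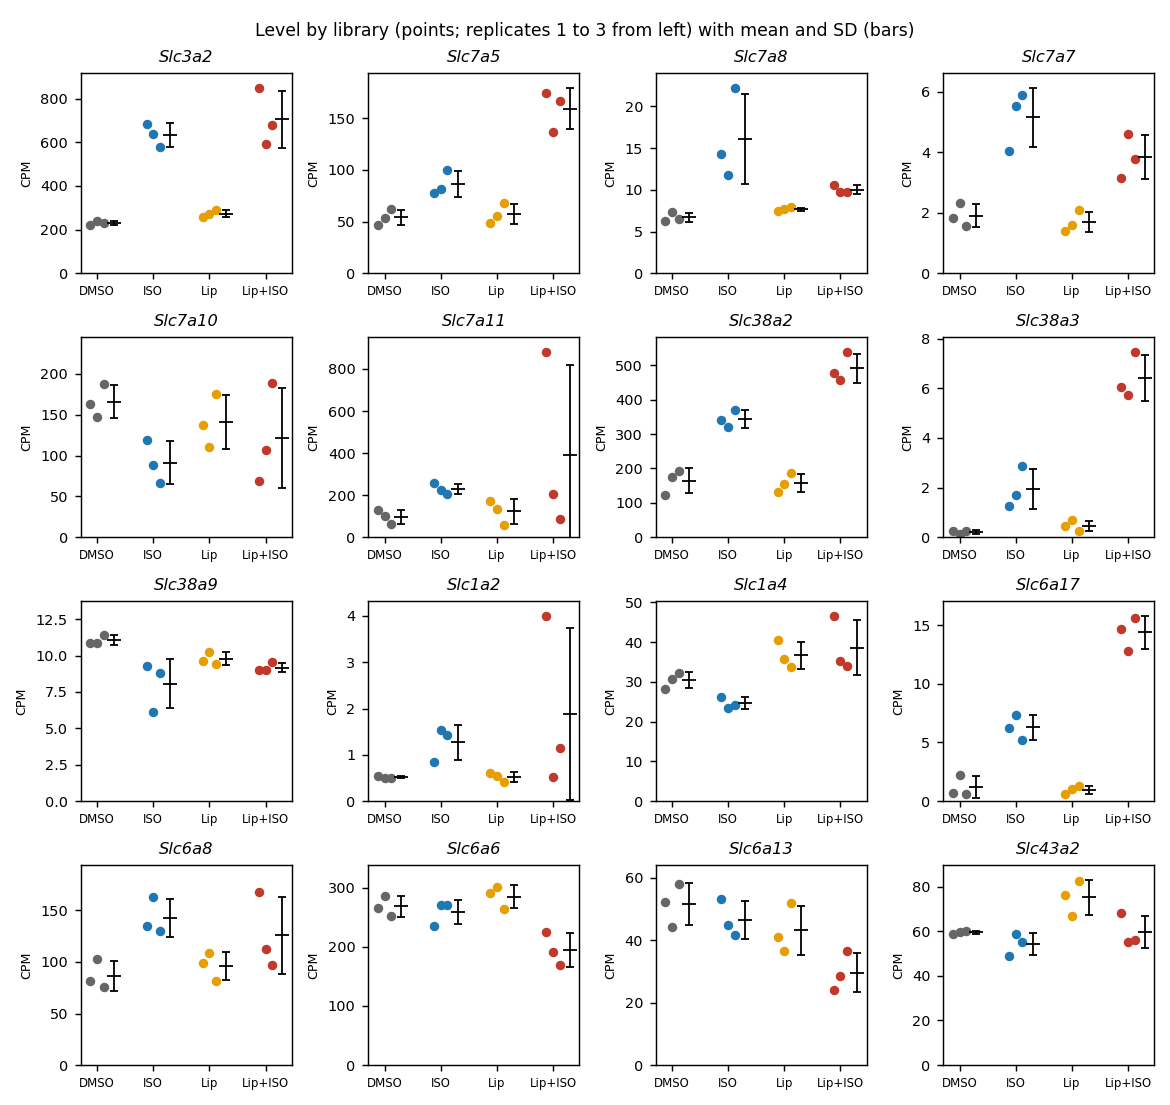
CPM of 16 members in each library, grouped as DMSO, ISO, Lip and Lip+ISO (points, replicates 1 to 3 from left), with the mean and SD beside them (bars, not drawn below 0). Slc3a2, Slc7a5, Slc7a8, Slc7a7, Slc38a2, Slc38a3 and Slc6a17 are separated by ISO both without and with inhibitors, and Slc7a11 in Lip+ISO spreads from 87.9 to 881 CPM.

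The heavy chain was higher relative to the sum of its light chains in all libraries with ISO. On the scale of CPM per kb, the sum of Slc7a5, Slc7a6, Slc7a7, Slc7a8, Slc7a10 and Slc7a11 was 135 ± 12 in DMSO, 118 ± 13 in ISO, 124 ± 17 in Lip and 175 ± 31 in Lip+ISO (SD, n = 3). Slc3a2 itself was at 82.4 ± 3.1, 225 ± 19, 97.0 ± 5.4 and 251 ± 46 in the same order. The ratio of the light chain sum to Slc3a2 was 1.64 ± 0.18 in DMSO and 0.523 ± 0.021 in ISO, and 1.28 ± 0.14 in Lip and 0.700 ± 0.064 in Lip+ISO. The ratio was 1.12 to 1.79 in the 6 libraries without ISO and 0.501 to 0.774 in the 6 libraries with ISO, which did not overlap. This ratio was described and not tested.

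Within the light chain sum, Slc7a10 held the largest share in every library but Lip+ISO replicate 1. Slc7a10 made up 71.4% ± 2.5 of the light chain sum in DMSO, 44.5% ± 8.3 in ISO, 65.7% ± 6.3 in Lip and 41.1% ± 19.4 in Lip+ISO. Slc7a5 made up 11.4% ± 1.2 in DMSO, 21.2% ± 5.0 in ISO, 13.2% ± 1.9 in Lip and 26.1% ± 1.5 in Lip+ISO. All 6 libraries with ISO had a larger share of Slc7a5 (16.7% to 27.8%) than the 6 without it (10.02% to 14.8%). The share of Slc7a11 was 21.1% ± 0.4 in ISO and 23.0% ± 22.4 in Lip+ISO, where replicate 1 alone reached 48.1%.

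**Figure D3:**
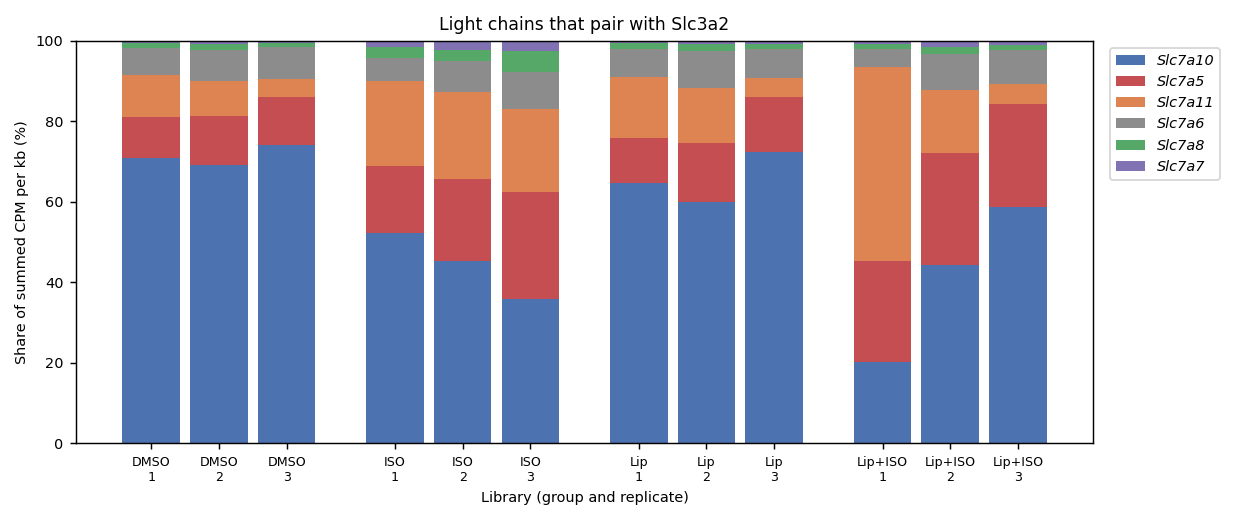
Share of each light chain in the sum of the 6 light chains that pair with Slc3a2 (percent of summed CPM per kb) in each of the 12 libraries. The share of Slc7a10 is 69.1% to 74.1% in the DMSO libraries and 35.8% to 52.3% in the ISO libraries, and Lip+ISO replicate 1 stands apart by its share of Slc7a11.

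In the Slc38 family, the system A transporter Slc38a2 (SNAT2, chr15:96517823-96530129, minus strand), which takes up alanine, glutamine and other small neutral amino acids, rose in both settings. It had 124, 176 and 193 CPM in DMSO and 341, 320.1 and 371 CPM in ISO. It had 133, 155 and 186 CPM in Lip and 478, 457 and 539 CPM in Lip+ISO. The 4 groups formed 3 steps, with DMSO and Lip together at the bottom, ISO above them and Lip+ISO highest. The rise was 2.09-fold without inhibitors (1.07 ± 0.16, adjusted p = 0.000353) and 3.11-fold with them (1.64 ± 0.16, adjusted p = 6.94e-06). Lip+ISO exceeded ISO by 0.51 ± 0.15 on the log2 scale, which missed the threshold (adjusted p = 0.0602) and passed without DMSO replicate 1, Lip replicate 1, Lip replicate 3 or replicate 1 of every group (adjusted p of 0.0234, 0.0472, 0.0476 and 0.0433). This step also passed with the DESeq2 Wald test (adjusted p = 0.0123). By edgeR it passed with the replicate number as a block (adjusted p = 0.00548) and with only the 2 groups compared (adjusted p = 0.0225). It did not pass with other scalings or without the low-count filter.

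The neighbours of Slc38a2 on chromosome 15 are of the same family. Slc38a1 (SNAT1) lies 44.5 kb away and had 1.83, 3.69 and 1.33 CPM in DMSO and 3.57, 6.54 and 5.92 CPM in ISO. The groups overlapped by 1 library and the log2 fold change of 1.24 ± 0.47 did not pass (adjusted p = 0.0677). Slc38a4 (SNAT4), 295 kb on the other side, had 1.34 to 1.74 CPM in DMSO and 1.41 to 1.65 CPM in ISO (-0.03 ± 0.33, adjusted p = 0.957).

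Slc38a3 (SNAT3, chr9:107553486-107571299, minus strand), a glutamine carrier known from liver, kidney and brain, was close to the limit of detection without ISO. It had 0.253, 0.126 and 0.235 CPM in DMSO, from 8, 3 and 6 counts, and 1.28, 1.72 and 2.85 CPM in ISO. In Lip it had 0.447, 0.676 and 0.249 CPM, and in Lip+ISO it had 6.06, 5.74 and 7.47 CPM. No libraries of the groups with ISO overlapped those without, and Lip+ISO lay above ISO in every library. The rise was 3.20 ± 0.44 on the log2 scale without inhibitors (adjusted p = 0.000226) and 3.81 ± 0.40 with them (adjusted p = 1.3e-05). Lip+ISO exceeded ISO by 1.72 ± 0.35 (adjusted p = 0.00832), a call lost without replicate 1 or without replicate 2 of every group (adjusted p = 0.0757 and 0.08).

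Slc38a9 (chr13:113450974-113528960, plus strand), which senses arginine at the lysosome for mTORC1, had 10.9, 10.9 and 11.4 CPM in DMSO and 9.25, 6.15 and 8.78 CPM in ISO. The ISO libraries were all lower, by -0.46 ± 0.15 on the log2 scale (adjusted p = 0.0374). The call was lost without any 1 of the 3 DMSO libraries, without ISO replicate 2 and without any 1 of the 3 replicate numbers, with an adjusted p of up to 0.243. Among the abundant members of the family, Slc38a10 had 479 to 559 CPM in DMSO and 427 to 466 CPM in ISO (-0.20 ± 0.09, adjusted p = 0.11). Slc38a7, a lysosomal glutamine exporter, had 52.8 to 65.8 CPM and 51.4 to 60.5 CPM (-0.09 ± 0.11, adjusted p = 0.582).

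In the Slc6 family, Slc6a17 (NTT4, chr3:107270466-107320936, minus strand) loads neutral amino acids into synaptic vesicles of neurons. It had 0.663, 2.27 and 0.626 CPM in DMSO, 6.25, 7.37 and 5.23 CPM in ISO, 0.618, 1.03 and 1.27 CPM in Lip, and 14.7, 12.8 and 15.6 CPM in Lip+ISO. No library without ISO reached any library with it, and the Lip+ISO libraries were all above the ISO libraries. The rise was 5.41-fold without inhibitors (2.44 ± 0.40, adjusted p = 0.000837) and 14.6-fold with them (3.86 ± 0.41, adjusted p = 1.58e-05). Without DMSO replicate 2, the highest of its group, the log2 fold change in ISO over DMSO was 3.27 (adjusted p = 2.11e-05). The step from ISO to Lip+ISO was 1.19 ± 0.36 with an adjusted p of 0.06, which passed without DMSO replicate 2, DMSO replicate 3 or replicate 2 of every group (0.00545, 0.0495 and 0.0473). This step also passed with the DESeq2 Wald test (adjusted p = 0.00831). By edgeR it passed with the replicate number as a block, with only the 2 groups compared and without the low-count filter (adjusted p of 0.0174, 0.00483 and 0.0496). It did not pass with other scalings. Of the neuronal markers, the noradrenergic enzymes Th and Dbh were at 0 in 11 and 9 of the 12 libraries. Tubb3 was at 0.0948 to 1.55 CPM in DMSO, 1.45 to 2.56 CPM in ISO, 0.55 to 1.02 CPM in Lip and 4.01 to 5.38 CPM in Lip+ISO. The sum of the 10 neuronal and glial markers was 1.48 to 3.36 CPM in DMSO, 3.57 to 5.79 CPM in ISO, 1.82 to 2.80 CPM in Lip and 6.32 to 8.41 CPM in Lip+ISO, and its part in the change was not tested.

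The creatine transporter Slc6a8 (chrX:70918472-70927839, plus strand) had 81.1, 103 and 75.3 CPM in DMSO and 135, 163 and 129.65 CPM in ISO. The groups did not overlap and the rise was 1.65-fold (0.72 ± 0.19, adjusted p = 0.0137). This call was lost without DMSO replicate 1, DMSO replicate 3, ISO replicate 2, or replicate 2 or 3 of every group (adjusted p of 0.0557, 0.0656, 0.0629, 0.0583 and 0.0535). With inhibitors the levels overlapped, at 98.6, 109 and 81.6 CPM in Lip and 168, 112 and 97.4 CPM in Lip+ISO (0.38 ± 0.19, adjusted p = 0.161).

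The taurine transporter Slc6a6 (chr6:91634061-91709057, plus strand) had 266, 287 and 252 CPM in DMSO and 236, 270.5 and 270.3 CPM in ISO, which overlapped. It had 291, 300.3 and 263 CPM in Lip and 225, 191 and 169 CPM in Lip+ISO, and the Lip+ISO libraries were below all others. It fell by 0.55 on the log2 scale in Lip+ISO against Lip (SE 0.11, adjusted p = 0.00191), a call lost without replicate 2 of every group (adjusted p = 0.0673). It was also lower in Lip+ISO than in ISO (-0.41 ± 0.11, adjusted p = 0.0317). The latter call was lost without ISO replicate 2, ISO replicate 3, Lip+ISO replicate 2 or Lip+ISO replicate 3, and without replicate 2 or 3 of every group, with an adjusted p of up to 0.296.

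Slc6a13 (GAT2, chr6:121250314-121287736, plus strand), which carries GABA and taurine, had 52.3, 44.3 and 57.9 CPM in DMSO and 53.2, 44.7 and 41.6 CPM in ISO. It had 41.1, 36.5 and 51.8 CPM in Lip and 24.0, 28.4 and 36.5 CPM in Lip+ISO. The Lip+ISO libraries were below all others, though the highest of them and the lowest Lip library both came to 36.5 CPM. It was lower in Lip+ISO than in Lip (-0.54 ± 0.17, adjusted p = 0.0299) and than in ISO (-0.65 ± 0.17, adjusted p = 0.0319). The first call was lost without Lip replicate 1 or 3, Lip+ISO replicate 1 or 2, or replicate 1 or 2 of every group. The second was lost without ISO replicate 1 or 2, Lip+ISO replicate 1 or 2, or replicate 1 or 2 of every group, and the highest adjusted p were 0.181 and 0.248. The betaine and GABA transporter Slc6a12, whose gene lies 8.98 kb away, had 0.294 to 0.758 CPM in DMSO and passed in no comparison. The glycine transporter Slc6a9 had 24.7, 27.2 and 27.6 CPM in DMSO and 23.9, 23.2 and 24.2 CPM in ISO. In Lip it had 33.4, 33.2 and 38.2 CPM, and in Lip+ISO 47.9, 22.4 and 20.2 CPM, and it passed in no comparison.

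None of the 6 tested members of the Slc1 family of glutamate and neutral amino acid carriers passed in ISO against DMSO by edgeR. Their median log2 fold change of 0.60 lies in the gap between Slc1a5 (-0.09) and Slc1a2 (1.30) and describes no member. Slc1a1, Slc1a2 and Slc1a7 had positive values, from DMSO means of only 0.126, 0.516 and 0.117 CPM. The abundant Slc1a3, Slc1a4 and Slc1a5 had negative values. The abundant Slc1a5 (chr7:17366695-17383623, plus strand) had 358, 378 and 419 CPM in DMSO and 346, 348 and 389 CPM in ISO (-0.09 ± 0.10, adjusted p = 0.518). It had 354, 355 and 344 CPM in Lip and 259, 308 and 336 CPM in Lip+ISO, where all values were lower but the difference did not pass (-0.22 ± 0.10, adjusted p = 0.124). Slc1a3 (GLAST), a glutamate transporter, had 84.2, 63.9 and 65.9 CPM in DMSO and 65.1, 39.96 and 44.8 CPM in ISO, which overlapped (-0.52 ± 0.19, adjusted p = 0.0672). It passed without ISO replicate 1 (adjusted p = 0.0119) and without replicate 1 of every group (adjusted p = 0.00669). Slc1a3 also passed with the DESeq2 Wald test (adjusted p = 0.0434). By edgeR it passed with the replicate number as a block (adjusted p = 0.0206) and with library totals alone (adjusted p = 0.0302). It did not pass with DESeq2 size factors, without the low-count filter or with only the 2 groups compared.

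Slc1a4 (ASCT1, chr11:20202183-20232716, minus strand), an exchanger of serine, alanine and cysteine, separated the groups by inhibitor. It had 28.2, 30.7 and 32.2 CPM in DMSO, 26.3, 23.3 and 24.1 CPM in ISO, 40.5, 35.7 and 33.8 CPM in Lip, and 46.6, 35.3 and 33.9 CPM in Lip+ISO. Each library with inhibitors exceeded each library without them. The difference passed between Lip+ISO and ISO (0.65 ± 0.12, adjusted p = 0.00534; 0.09 without replicate 2 of every group) and not between Lip and DMSO (0.27 ± 0.12, adjusted p = 1).

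Slc1a2 (GLT-1, chr2:102498840-102630941, plus strand), the main glutamate transporter of astrocytes, passed as higher in Lip+ISO than in Lip (1.84 ± 0.60, adjusted p = 0.0371). It had 0.618, 0.547 and 0.415 CPM in Lip and 4.00, 0.519 and 1.15 CPM in Lip+ISO, which overlapped. Without Lip+ISO replicate 1, which holds 4.00 CPM, the value was 0.66 (adjusted p = 0.354), and the call was also lost without DMSO replicate 1 or 3, ISO replicate 3, any 1 of the 3 Lip libraries, or replicate 1 or 3 of every group. In DMSO it had 0.537, 0.504 and 0.509 CPM and in ISO 0.837, 1.54 and 1.43 CPM. The groups were separate, but the log2 fold change of 1.30 ± 0.61 did not pass (adjusted p = 0.135). The glutamate transporters Slc1a1 and Slc1a7 stayed under 1 CPM in every library and were higher in each ISO library than in each DMSO library (2.10 ± 0.77, adjusted p = 0.0608 and 1.65 ± 0.81, adjusted p = 0.155). They passed in no comparison, although Slc1a1 passed in ISO against DMSO without ISO replicate 1 or without Lip replicate 1 (adjusted p = 0.0478 and 0.0363). Slc1a1 also passed there with the DESeq2 Wald test (adjusted p = 0.0474), and not by edgeR with the replicate number as a block (adjusted p = 0.0584).

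No member of the Slc36 family of proton-coupled transporters passed. Slc36a1 had 30.3, 37.97 and 37.55 CPM in DMSO and 33.4, 37.4 and 49.2 CPM in ISO. Slc36a2, an alanine, glycine and proline transporter found on adipocytes, had 44.4, 39.7 and 49.5 CPM in DMSO and 43.4, 42.1 and 45.9 CPM in ISO, with a log2 fold change of -0.02 ± 0.13. Slc36a4 had 9.16 to 10.9 CPM in DMSO and 7.69 to 8.95 CPM in ISO (-0.30 ± 0.13, adjusted p = 0.121).

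In the Slc43 family, Slc43a2 (LAT4, chr11:75345196-75391074, plus strand), a uniporter of branched-chain amino acids and phenylalanine, had 58.7, 59.5 and 60.1 CPM in DMSO and 48.8, 58.9 and 55.1 CPM in ISO. In Lip it had 76.4, 66.8 and 82.4 CPM, and in Lip+ISO it had 67.96, 55.002 and 56.001 CPM. It fell by 0.33 on the log2 scale in Lip+ISO against Lip (SE 0.10, adjusted p = 0.0298), although Lip replicate 2 was below Lip+ISO replicate 1. This call was lost without Lip replicate 1 or 3, Lip+ISO replicate 2 or 3, or replicate 2 or 3 of every group (adjusted p of up to 0.309). Slc43a1 (LAT3) had 1.61, 2.85 and 2.39 CPM in DMSO and 1.54, 2.15 and 1.99 CPM in ISO, and the purine transporter Slc43a3 had 16.1, 26.7 and 15.7 CPM and 23.5, 35.1 and 30.0 CPM. The groups overlapped for both and neither passed.

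With the lipases inhibited, ISO raised 7 of the 40 tested members and lowered 3 relative to the inhibitors alone. The share of higher members was 17.5%, against 11.5% of all tested genes, and that of lower members was 7.5%, against 15.8%. All 7 higher members had a log2 fold change of at least 1, against a background of 4.19%, and no lower member did, against 3.16%. The groups did not overlap for 8 members that were higher, against 17.2% of all tested genes, and for 6 that were lower, against 22%. The members that passed as higher in both responses to ISO were Slc3a2, Slc7a5, Slc7a7, Slc38a2, Slc38a3 and Slc6a17. Slc6a8 and Slc7a8 passed only without inhibitors and Slc1a2 only with them. None of the 40 members passed the test of the difference between the responses by edgeR with no term for the replicate, where 0.901% of all genes passed as higher and 0.724% as lower, and 0.406% and 0.34% with a difference of at least 1. At an unadjusted p under 0.05 there were 6 of the 40 members, against 1868 of all 13543 tested genes. The DESeq2 Wald test called 1 member, Slc7a5. Slc6a6 passed the edgeR test of the difference without Lip+ISO replicate 1 (-0.61, adjusted p = 0.0347), while its value over all libraries was -0.50 ± 0.15 (adjusted p = 0.142).

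**Figure D4:**
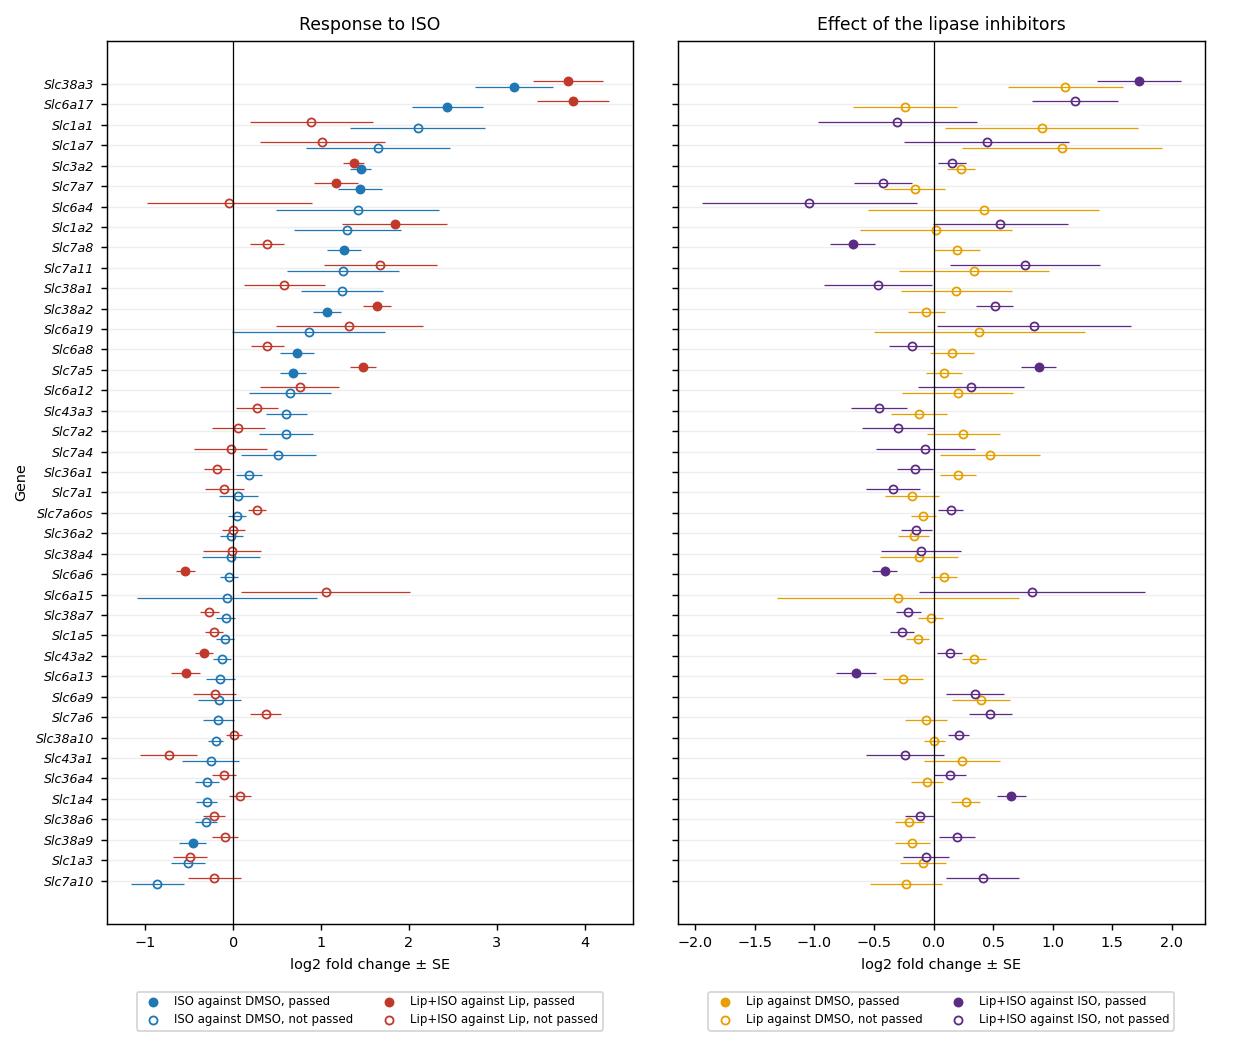
Log2 fold change with SE of the 40 tested members for the response to ISO without and with inhibitors (left) and for the effect of the inhibitors without and with ISO (right), with filled points for members that passed at an adjusted p of 0.05 or less. Slc38a3 and Slc6a17 have the highest responses to ISO in both settings, and no point is filled for Lip against DMSO.

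The inhibitors alone moved no member past the threshold. In Lip against DMSO, 0 of 40 members passed by edgeR and 0 by the DESeq2 Wald test. An unadjusted p under 0.05 was found for 3 members, against 582 of all 13543 tested genes. Among all tested genes, 0.00738% passed as higher and 0.0443% as lower, and 0% and 0.0222% did so with a log2 fold change of at least 1. Groups were separate for 5 members that were higher and 3 that were lower, against 5.19% and 5.21% of all tested genes. The members with an unadjusted p under 0.05 were Slc43a2 (0.34 ± 0.10), Slc38a3 (1.11 ± 0.48) and Slc1a4 (0.27 ± 0.12).

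Under ISO, the inhibitors shifted 6 members. Slc7a5, Slc38a3 and Slc1a4 were higher in Lip+ISO than in ISO and Slc7a8, Slc6a6 and Slc6a13 were lower, which is 7.5% in each direction against 4.36% and 4.59% of all tested genes. Only Slc38a3 reached a log2 fold change of 1 in size, against 0.79% of all tested genes as higher and 1.2% as lower. Separate groups were found for 6 members that were higher and 4 that were lower, against 11.9% and 13.5%. This comparison shares the Lip+ISO libraries with that of Lip+ISO against Lip and the ISO libraries with that of ISO against DMSO. The sum of the macrophage markers and that of the fibroblast markers had lower ranges in Lip+ISO than in ISO, which overlapped for macrophages and not for fibroblasts. The ranges of the mesothelial sum did not overlap either, and those of the endothelial sum did. As lower there passed 1 of 12 macrophage, 3 of 10 fibroblast, 1 of 8 mesothelial and 0 of 10 endothelial markers, and their part in the lower level of Slc7a8 was not tested.

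The pathways around the transporters were described with gene lists that were chosen with earlier results of these data known. Their counts are to be read against the shares of all tested genes that passed, which were 12.3% higher and 13.9% lower in ISO against DMSO, 11.5% and 15.8% in Lip+ISO against Lip, and 4.36% and 4.59% in Lip+ISO against ISO. Of 24 genes of the amino acid response and targets of ATF4, 8 passed as higher and 2 as lower in ISO against DMSO, and 8 and 3 in Lip+ISO against Lip. The transcription factor Cebpb rose from a mean of 249 to 1038 CPM (2.06 ± 0.18, adjusted p = 5.52e-06), the mTORC1 inhibitor Ddit4 from 114 to 334 CPM (1.55 ± 0.17, adjusted p = 3.31e-05), and Chac1, a glutathione-degrading enzyme, from 76.5 to 216 CPM (1.495 ± 0.203, adjusted p = 0.000192). Atf4 itself rose from 274 to 498 CPM (0.86 ± 0.12, adjusted p = 0.000265). Asns, the asparagine synthetase and a classical target, did not pass and had means of 129 and 120 CPM (-0.11 ± 0.08, adjusted p = 0.29). Trib3 and Cth exceeded their ISO level in Lip+ISO, at means of 388 against 167 CPM and 33.0 against 18.4 CPM (1.21 ± 0.11, adjusted p = 4.1e-05 and 0.85 ± 0.09, adjusted p = 0.000106), and Fgf21 was lower (-1.59 ± 0.45, adjusted p = 0.0463). Trib3 is a pseudokinase that binds ATF4, and Cth makes cysteine from cystathionine.

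Of 18 tested enzymes of glutamate, glutamine, aspartate and proline metabolism, 4 passed as higher and 1 as lower in ISO against DMSO, and 5 and 1 in Lip+ISO against Lip. The aspartate aminotransferase Got1 rose from 29.0 to 69.7 CPM (1.27 ± 0.17, adjusted p = 0.000192), the glutamine synthetase Glul from 718 to 1266 CPM (0.82 ± 0.12, adjusted p = 0.000334) and Got2 from 54.7 to 65.7 CPM (0.26 ± 0.09, adjusted p = 0.0385). In Lip+ISO against ISO, Asl of the arginine pathway was higher (0.66 ± 0.11, adjusted p = 0.00244), as was Oat (0.30 ± 0.08, adjusted p = 0.0448). Glul had -0.41 ± 0.12 there and narrowly did not pass (adjusted p = 0.05 after rounding), and 0 enzymes passed as lower.

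Of 20 genes of branched-chain amino acid breakdown, 1 passed as higher and 2 as lower in ISO against DMSO. Bcat1, the cytosolic aminotransferase, rose from 30.7 to 50.4 CPM (0.72 ± 0.16, adjusted p = 0.00653), while Acad8 and Ppm1k were lower (-0.48 ± 0.12, adjusted p = 0.0124 and -0.38 ± 0.11, adjusted p = 0.0247). In Lip+ISO against Lip, 1 passed as higher and 0 as lower, and in Lip+ISO against ISO none passed by edgeR, where the smallest adjusted p was 0.166 for Bcat1. Of 11 tested creatine, taurine and glycine enzymes, the creatine kinase Ckb alone passed in ISO against DMSO, from 29.6 to 50.4 CPM (0.77 ± 0.12, adjusted p = 0.000549). None of these 11 passed in the other 4 comparisons by edgeR.

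Among 22 genes of nutrient sensing by mTORC1, 3 passed as higher and 2 as lower in ISO against DMSO, and 4 and 5 in Lip+ISO against Lip. Sesn1, a leucine-sensing inhibitor, fell from 19.7 to 9.36 CPM (-1.07 ± 0.11, adjusted p = 2.15e-05), Gatsl2, of the family of arginine sensors, fell from 26.6 to 13.2 CPM (-1.02 ± 0.16, adjusted p = 0.000666), and Flcn rose from 66.9 to 109 CPM (0.70 ± 0.15, adjusted p = 0.00439). In Lip+ISO, Depdc5, a subunit of the GATOR1 complex that restrains mTORC1, had 43.3 CPM against 18.7 CPM in ISO (1.21 ± 0.12, adjusted p = 5.5e-05). Flcn, of the folliculin complex, was also higher there than in ISO (0.87 ± 0.15, adjusted p = 0.0029), and Tfe3 was lower (-0.31 ± 0.07, adjusted p = 0.0178).

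Of 19 tested amino acid and peptide carriers of other families, 3 passed as higher and 3 as lower in ISO against DMSO, and 1 and 6 in Lip+ISO against Lip. The lysosomal histidine and peptide transporter Slc15a3, known from immune cells, rose from 3.96 to 20.6 CPM (2.38 ± 0.23, adjusted p = 1.23e-05). The acetyl-CoA transporter Slc33a1 and the mitochondrial carrier of branched-chain amino acids Slc25a44 were lower (-0.38 ± 0.08, adjusted p = 0.00289 and -0.47 ± 0.10, adjusted p = 0.0031). In Lip+ISO against ISO, 0 passed as higher and 4 as lower. Slc16a10, a uniporter of aromatic amino acids, was at 32.5 to 42.3 CPM in Lip+ISO and at 86.8 to 92.7 CPM in ISO (-1.24 ± 0.13, adjusted p = 8.53e-05). The mitochondrial glutamate carrier Slc25a22 (-0.56 ± 0.11, adjusted p = 0.00554) and the carnitine transporter Slc22a5 (-0.65 ± 0.14, adjusted p = 0.0117) were also lower. In Lip against DMSO, no gene of these lists passed by edgeR.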

How the data were processed

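RNA was sequenced from 12 cultures of mature epididymal white adipocytes, 3 in each of the groups DMSO, ISO, Lip and Lip+ISO. The sample titles gave the group and replicate of each library. Raw counts of reads by gene were deposited, 1 column for each library. The authors aligned to mm9 (STAR 2.4.2a) and counted reads per RefSeq gene with HOMER, accepting 1 read per position and read length, and iRNA-seq. Counted lengths in base pairs are the table's own, as deposited, and were used only for CPM per kb. Limiting reads per position can compress the levels of short, abundant genes. Replicates were not pooled. The stimulus was taken to be ISO, as in the titles and the results text, although a figure legend of the study names SR-3420. Library totals were 22632220 to 43707557 counts, and the limits of detection cover counting error only. The SE and SD include the variation between libraries. No pair of libraries was found to be a duplicate. Some genes are not reported here.

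Tests used edgeR 4.0.16 (R 4.3.3). The filter filterByExpr kept 13543 of 20295 genes, TMM factors were 0.924 to 1.07, and the model had a mean for each group and used the 12 libraries together. Two-sided quasi-likelihood F-tests were adjusted by Benjamini-Hochberg across the 13543 genes. A gene passed at an adjusted p of 0.05 or less. SE is the log2 fold change divided by the square root of F. The authors used DESeq2, and DESeq2 1.42.0 was an alternative here. The test was checked on simulated data.

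The members and the gene lists were chosen with earlier results of these data known. Members that passed in any comparison were named. Values by library were given for members with a log2 fold change of at least 1 that passed, and for a fixed list of members with a mean of at least 1 CPM in a group, as ranges where they moved little. Of each pathway list the 3 genes with the smallest p in ISO against DMSO and in Lip+ISO against ISO were taken, and Atf4, Asns and single further genes were added after their values were seen. Alternatives were other scalings, no low-count filter, DESeq2, a replicate block, only the groups compared, a minimum fold change and leaving out libraries.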

Additional observations from a re-analysis of the deposited data

Results flagged for a closer look

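The response to ISO differed with the inhibitors in 4 genes of the pathway lists, by the edgeR test of the difference between both responses. The log2 difference (response with inhibitors minus that without) was 1.09 for Cth (adjusted p = 0.0015), which makes cysteine from cystathionine, and 1.18 for Trib3 (adjusted p = 0.00273), a pseudokinase that binds ATF4. It was 1.22 for Depdc5 (adjusted p = 0.0034), a subunit of GATOR1, and -1.19 for Slc16a10 (adjusted p = 0.00554), a carrier of aromatic amino acids. None of the 40 tested members passed this test by edgeR without a replicate block, which called 0.901% of all genes as higher and 0.724% as lower, while 6 members had an unadjusted p under 0.05 and DESeq2 called 1.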

How the results depend on the processing

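Of the log2 fold changes of single members recomputed under the alternatives, 707 kept their direction and their side of the threshold, 76 fell short of it, 45 came past it and 3 changed sign. The reversals were Slc7a11 in Lip+ISO against Lip with Lip replicate 3 and Lip+ISO replicate 1 both left out, chosen after seeing the data (-0.079), and the small difference between responses of Slc3a2 without Lip+ISO replicate 2 (0.048) or without replicate 2 of every group (0.0099), with a range of -0.23 to 0.048 over the fits that left out samples. The cause was not tested. Under a minimum log2 fold change of 1, 0 members passed as lower in ISO against DMSO, Lip+ISO against Lip and Lip+ISO against ISO, and 1 as higher in the last, by construction. With library totals alone, which moved the median of all genes to -0.12 in Lip+ISO against Lip, 5 members passed as lower in ISO against DMSO and 7 in Lip+ISO against Lip. Members lower in ISO against DMSO were 2 without the low-count filter, 2 with DESeq2, 2 with only both groups compared and 4 with both libraries left out. With only the groups compared, 1 passed as lower in Lip+ISO against Lip, and 5 as higher and 1 as lower in Lip+ISO against ISO. DESeq2 gave 5 higher in Lip+ISO against ISO and 1 higher for the difference between responses. With both libraries left out, 1 passed as lower in Lip+ISO against ISO and 1 as lower for the difference.

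Over the 15 fits that left out 1 library or 1 replicate number, 7 to 11 members passed as higher and 0 to 4 as lower in ISO against DMSO, 6 to 9 and 0 to 4 in Lip+ISO against Lip, 2 to 4 and 0 to 2 in Lip+ISO against ISO, 0 to 1 and 0 to 1 for the difference, and 0 and 0 in Lip against DMSO. Slc3a2, Slc38a2, Slc38a3 and Slc6a17 passed in all 15 fits of both responses to ISO.

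Same-numbered libraries correlated at 0.0373 to 0.369 in their deviations from the group means, against -0.329 to 0.0853 for others. By the mean correlation with the libraries of each number in the other groups, all 12 correlated best with their own number. Single pairs did not all follow: ISO replicate 3 had 0.0517 with Lip+ISO replicate 1 and 0.0373 with Lip+ISO replicate 3. This is a hint from the data: the methods describe the replicates as independent experiments, but no source states that a number marks the same experiment in every group, and the lowest value was not above 0.1. With the replicate number as a block, 11 members passed as higher and 5 as lower in ISO against DMSO, 10 and 5 in Lip+ISO against Lip, 6 and 5 in Lip+ISO against ISO, and 2 and 1 for the difference, which were Slc7a5 (0.81, adjusted p = 0.00768), Slc38a2 (0.57, 0.0426) and Slc6a6 (-0.50, 0.0457). The share of all tested genes that passed is not given for the block or for the other alternative fits. The counts of members under those fits therefore have no background to be read against. At this depth the 23 untested members, with at most 15 counts in a library, gave no test.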
